A study of Homo sapiens with 8 samples.

Results

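The granule and synaptic genes were the 9 genes CHGA, CHGB, SCG2, SCG3, SCG5, SYP, ENO2, STX1A and SNAP25, which are used as markers of neuroendocrine cells. Their members were all probe sets that carried 1 of these symbols and no other, which gave 11 probe sets of 41097 with a single symbol and 9 genes of 19775. SNAP25 had 3 probe sets and every other gene had 1. Where a gene is given by 1 value, it is the probe set with the highest mean over the 8 arrays.

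mRNA was measured on 8 Affymetrix U133 Plus 2.0 arrays, 4 for each of the prostate carcinoma cell lines LNCaP and 22Rv1. LNCaP was established from a lymph node metastasis. 22Rv1 came from a xenograft passaged in mice after the androgen-dependent CWR22 xenograft had regressed on castration and relapsed. In each line 1 array came from untreated cells and 1 from cells kept for 4 h in 10 mM caffeine, which the study used to inhibit nonsense-mediated decay. The other 2 came from cells that after this caffeine step were washed and kept for 4 h more in 2 µg/ml actinomycin D, which blocks transcription, together with 10 mM caffeine or alone. All 3 treated groups of a line had therefore received caffeine, and each group was 1 culture plate and 1 array, so no difference between a pair of arrays has a replicate check. The untreated and caffeine plates were taken after the first step, so time in culture and the second step cannot be told apart.

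Neuroendocrine cells store peptides in dense core granules, which the granin proteins help to form, and release them when SNARE proteins fuse the granule with the cell membrane. The granins are the chromogranins (CHGA and CHGB) and the secretogranins (SCG2, SCG3 and SCG5). SYP is a membrane protein of small synaptic vesicles, ENO2 is the neuronal form of the glycolytic enzyme enolase, and STX1A and SNAP25 are SNARE proteins of the plasma membrane. In the prostate such cells are few among luminal and basal epithelium, and some prostate cancers gain neuroendocrine features. In an extract of a whole culture, fewer cells that express a gene and less RNA in each cell cannot be told apart.

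The deposited values are log2 signals with the same distribution on every array, on which a difference of 1 is a factor of 2 and the lowest value is 2.27. A signal of at least 4 was taken as detected, which 20975 of 54675 probe sets were on each array. Of the luminal prostate markers, all 8 genes analysed were detected on all 4 arrays of both lines, among them KLK3, which encodes prostate-specific antigen, at 6.64 to 7.96 in LNCaP and 8.33 to 9.32 in 22Rv1. The basal keratins KRT5 and KRT14 and the leukocyte genes PTPRC, CD3E and LYZ stayed under 4 on all arrays. Of 3 fibroblast genes, COL1A2 was under 4 throughout, COL1A1 was at 5.29 to 8.50 in LNCaP and 5.86 to 8.65 in 22Rv1, and DCN was at 2.27 to 4.19 in LNCaP and 5.56 to 7.06 in 22Rv1. The list had a mean signal of 3.49 to 4.90 over the LNCaP arrays and 4.84 to 5.79 over the 22Rv1 arrays, and its part in the differences below was not tested. One array stood apart. The 3 probe sets of 18S rRNA averaged 11.71 on the LNCaP array of actinomycin D with caffeine and 4.09 to 7.08 on the other 7 arrays, so the line differences of the tested members are also given without it.

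The granule and synaptic genes were lower in LNCaP than in 22Rv1, with 1 exception. By these probe sets, 6 of the 9 genes were under 4 on all 4 LNCaP arrays, and only ENO2 and STX1A were detected on all 4. On the 22Rv1 arrays 7 genes were detected on all 4, CHGA was detected on 3, and SCG5 stayed at the bottom of the scale. For 8 of the 9 genes the highest LNCaP array lay below the lowest 22Rv1 array, and SCG5 was the exception. The same was found for 23.6% of all probe sets with a mean of 4 or more, a set without CHGA and SCG5. CHGB, SCG2, SCG3, SYP and SNAP25 averaged under 4 in LNCaP and entered that set only through 22Rv1. Their groups were thus nearly bound not to overlap, so the count is a description and cannot be weighed against this share.

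**Figure D1:**
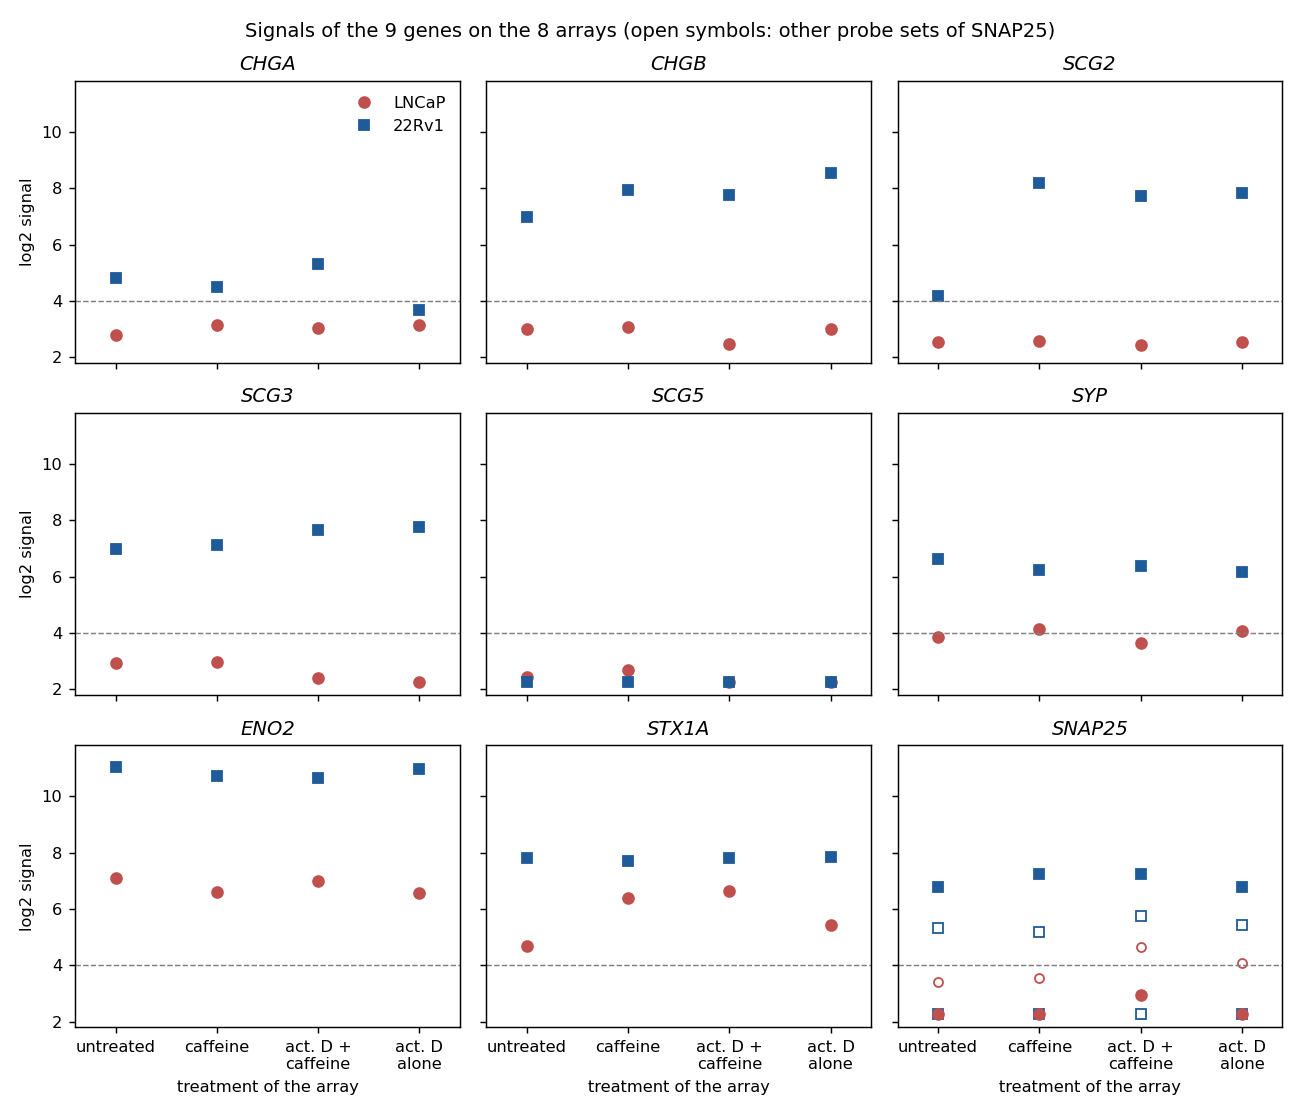
Log2 signal (vertical axis) of each of the 9 genes on the 8 arrays, with the 4 treatments along the horizontal axis, red circles for LNCaP and blue squares for 22Rv1. Each symbol is 1 array, open symbols are the other probe sets of SNAP25, and the dashed line is the detection level of 4. ENO2 lies at 6.56 to 7.08 in LNCaP and 10.66 to 11.04 in 22Rv1, while SCG5 is under 4 in both lines.

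Among the granins, CHGB and SCG3 were at the bottom of the range in LNCaP and well above detection in 22Rv1. In the order untreated, caffeine, actinomycin D with caffeine and actinomycin D alone, CHGB was at 3.0, 3.09, 2.47 and 2.99 in LNCaP and at 6.98, 7.94, 7.74 and 8.54 in 22Rv1. No LNCaP array reached 4, and in 22Rv1 the untreated array was the lowest and the array of actinomycin D alone the highest. SCG3, a granin that links granule cargo to cholesterol-rich membrane, was at 2.94, 2.98, 2.42 and 2.27 in LNCaP in the same order. In 22Rv1 it was at 6.98, 7.12, 7.65 and 7.75, with both actinomycin D arrays above both arrays of the first step.

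SCG2 was the granin that differed most between the arrays of 1 line. It encodes secretogranin II, the precursor of the peptide secretoneurin. In LNCaP it was at 2.53, 2.56, 2.45 and 2.53, a range of 0.11 and under detection throughout. In 22Rv1 it was at 4.19 on the untreated array, at 8.17 with caffeine, at 7.71 with actinomycin D and caffeine and at 7.82 with actinomycin D alone. The untreated array was thus just above the detection level, and the 3 arrays of cells that had received caffeine lay together far above it.

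CHGA, which encodes the granin most used as a serum and tissue marker, was low in both lines. It was at 2.79, 3.15, 3.04 and 3.14 in LNCaP and at 4.80, 4.50, 5.32 and 3.69 in 22Rv1, where the array of actinomycin D alone fell under 4. Its mean over 8 arrays was 3.80, so it was not tested. SCG5, whose product 7B2 is a chaperone of the prohormone convertase PC2, was at 2.27 to 2.68 in LNCaP and at 2.27 on all 4 arrays of 22Rv1. It was not tested either, and no level can be read for it.

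ENO2 was detected on every array and varied little within each line. LNCaP arrays gave it 7.08, 6.60, 6.99 and 6.56 and 22Rv1 arrays 11.04, 10.70, 10.66 and 10.96, so the range within a line was 0.52 in LNCaP and 0.38 in 22Rv1. SYP was at 3.86, 4.13, 3.65 and 4.08 in LNCaP, around the detection level, and at 6.64, 6.25, 6.38 and 6.17 in 22Rv1. Signals of different probe sets depend on their probes as well, so they give no order of abundance among the genes.

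The SNARE genes were less alike. STX1A was detected on all arrays, at 4.70, 6.39, 6.65 and 5.42 in LNCaP and at 7.80, 7.70, 7.81 and 7.83 in 22Rv1. It spanned 1.95 in LNCaP, the widest range of the 9 genes in that line, and 0.12 in 22Rv1. SNAP25 was given differently by its 3 probe sets. The brightest, 202508_s_at, was at 2.27, 2.28, 2.93 and 2.27 in LNCaP and at 6.78, 7.23, 7.23 and 6.77 in 22Rv1. The second, 202507_s_at, was at 3.39, 3.55, 4.66 and 4.07 in LNCaP and at 5.34, 5.17, 5.74 and 5.44 in 22Rv1, and its 2 detected LNCaP arrays were those of actinomycin D. The third, 1556629_a_at, was at 2.27 on all 8 arrays. The first and second probe sets were therefore lower on every LNCaP array than on any 22Rv1 array, and the third gave no information.

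The line difference, LNCaP minus 22Rv1, was tested with limma over the 8 arrays with treatment as a further term, so that the spread comes from the 4 treatments and not from repeated cultures. It was run on 21453 probe sets whose mean signal was 4 or more, and 8 of these were probe sets of 7 members. CHGA, SCG5 and the third SNAP25 probe set were below this limit. All but ENO2 and STX1A averaged under 4 in LNCaP and passed the limit only through their 22Rv1 signals, so they had to differ, and the count of calls is given as a description. All 8 probe sets of the 7 genes fell in LNCaP at an adjusted p under 0.05, while 26.3% of all probe sets tested were lower in LNCaP and 27.4% higher. Groups that did not overlap in this direction, 22Rv1 above LNCaP, were found for the same 8 probe sets and for 23.6% of all those tested.

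For the probe sets that had to differ, the fitted difference is given without its p value. As fitted, with signals under detection taken as they are, CHGB was at -4.91 (standard error 0.27). SCG3 was at -4.72 (standard error 0.29) and the brighter SNAP25 probe set at -4.56 (standard error 0.16). SCG2 was at -4.45 with a larger standard error of 0.68, since its 22Rv1 arrays were not alike. The standard errors of neighbours among these 4 estimates overlap, and their LNCaP signals were all under detection. ENO2, at -4.03 (standard error 0.17, adjusted p = 2.98e-05 from limma), was detected on every LNCaP array, so its estimate does not rest on signals under detection.

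SYP was at -2.43 (standard error 0.19), STX1A at -2.0 (standard error 0.35, adjusted p = 0.00488 from limma) and the second SNAP25 probe set at -1.51 (standard error 0.18). The 2 probe sets of SNAP25 thus gave the same direction. Where LNCaP signals were under detection, the fitted size is no bound, and the lower limit of the size comes from setting signals under 4 to 4. In this floored fit ENO2 stayed at -4.03, CHGB was at -3.80, SCG3 at -3.38, SNAP25 at -3.0, SCG2 at -2.97 and SYP at -2.31. All but ENO2 are lower limits here, so these values give no order of size. All 7 genes were called. Without the LNCaP array that stood apart, and with it the information of its 22Rv1 partner, 7 genes were called, with CHGB at -4.79, SNAP25 at -4.65, SCG3 at -4.55, SCG2 at -4.18, ENO2 at -4.15, SYP at -2.33 and STX1A at -2.27. With no filter on the mean, SCG2 and STX1A were no longer called.

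**Figure D2:**
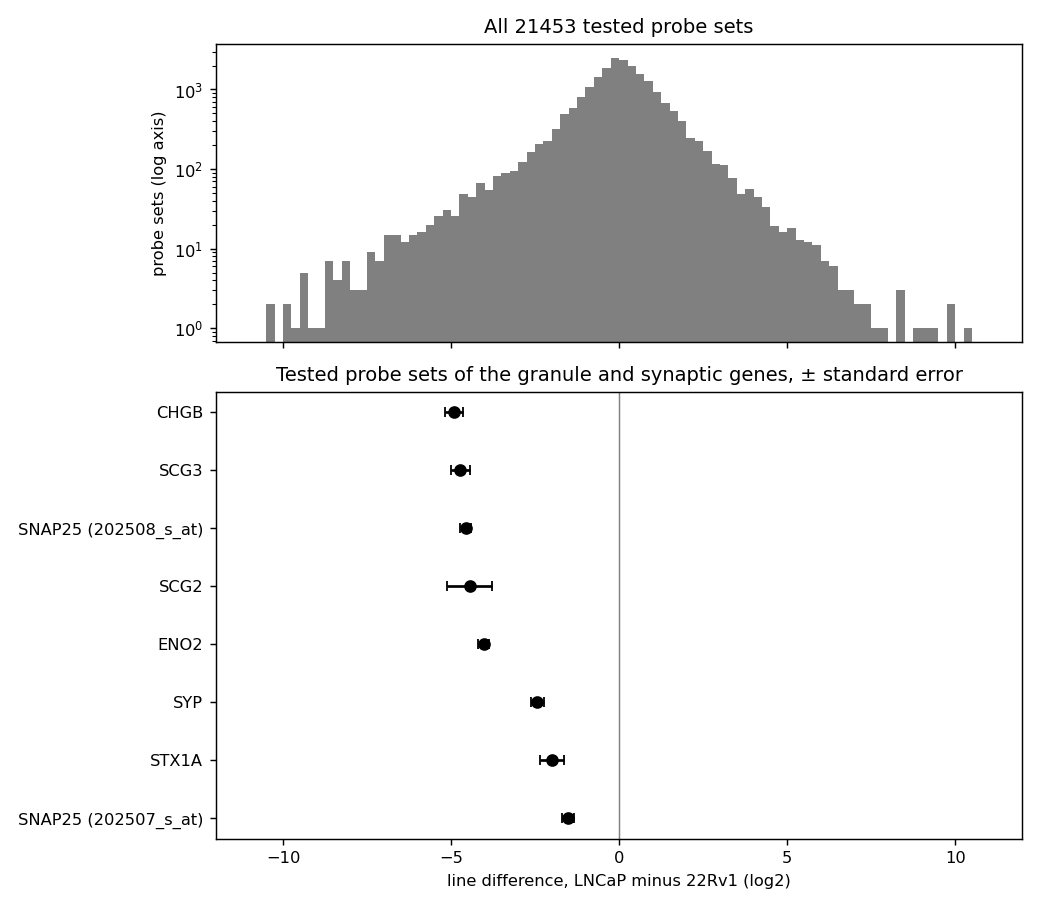
Line difference (LNCaP minus 22Rv1, log2, horizontal axis) for all 21453 probe sets tested, as a histogram with a log count axis, above the 8 tested probe sets of the granule and synaptic genes with their standard errors. The 8 estimates lie between -4.91 and -1.51, all to the left of 0, and all but those of ENO2 and STX1A rest on LNCaP means under 4.

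In untreated cells alone, the comparison of the lines before any drug, 8 of the 9 genes were detected in one of the 2 arrays. Of these, 7 were lower in LNCaP by more than 2, the cut-off for this comparison. Only ENO2 and STX1A were detected on the untreated LNCaP array. CHGA, CHGB, SCG2, SCG3, SYP and SNAP25 were under 4 there and entered through the other line alone, so they had to be lower. The count is therefore a description and cannot be weighed against the 7.53% of all 22842 detected probe sets that passed in that direction. The differences were -4.51 for SNAP25, -4.04 for SCG3, -3.99 for CHGB, -3.96 for ENO2, -3.10 for STX1A, -2.77 for SYP and -2.02 for CHGA. SCG2 was at -1.65 and did not pass, whereas with caffeine it differed by -5.61. CHGA lay at the cut-off, and with signals under 4 set to 4 its difference was -0.80. For STX1A the order was the other way round, with -3.10 in untreated cells, -1.32 with caffeine, -1.16 with actinomycin D and caffeine and -2.41 with actinomycin D alone.

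After caffeine 1 member in each line was higher by more than 1.3, and it was a different gene in each. The accumulation, caffeine minus untreated, was 3.98 for SCG2 in 22Rv1 and 1.69 for STX1A in LNCaP. In 22Rv1, SCG2 was the 1 of 8 detected members above the cut-off of 1.3, which 5.73% of all detected probe sets passed. Of all detected probe sets 0.137% were as high as SCG2 or higher. In LNCaP, STX1A was the 1 of 3 detected members above 1.3, which 3.55% of all detected probe sets passed, and 1.47% of all were at its value or higher. SCG2 was at 2.56 with caffeine and 2.53 without it in LNCaP, under detection on both arrays, and STX1A was at 7.70 with caffeine and 7.80 without it in 22Rv1.

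Of the remaining detected members, CHGB was higher with caffeine in 22Rv1 by 0.95 and SNAP25 by 0.45, and ENO2 was at -0.48 in LNCaP and -0.33 in 22Rv1. SYP was at 0.27 in LNCaP and -0.39 in 22Rv1, and CHGA at -0.30 in 22Rv1. None of these was past 1.3. The median over the detected members was 0.27 for 3 genes in LNCaP and 0.02 for 8 genes in 22Rv1, against -0.03 and -0.04 for all detected probe sets of these lines.

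Over both lines limma called 0 of the 7 tested genes for accumulation, while 0.0466% of all probe sets were called, and 0 of the 8 member probe sets had an unadjusted p under 0.05. SCG2 had an estimate of 2.00 (standard error 0.96, adjusted p = 0.349 from limma) and STX1A of 0.79 (standard error 0.50, adjusted p = 0.471 from limma). The estimate of SCG2 averages a difference in 22Rv1 with LNCaP arrays under detection, where no response can be read. That of STX1A averages a difference in LNCaP with one of -0.10 in 22Rv1. Whether the response of a gene differed between the lines was not tested, since terms for every treatment in each line leave no residual degrees of freedom.

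**Figure D3:**
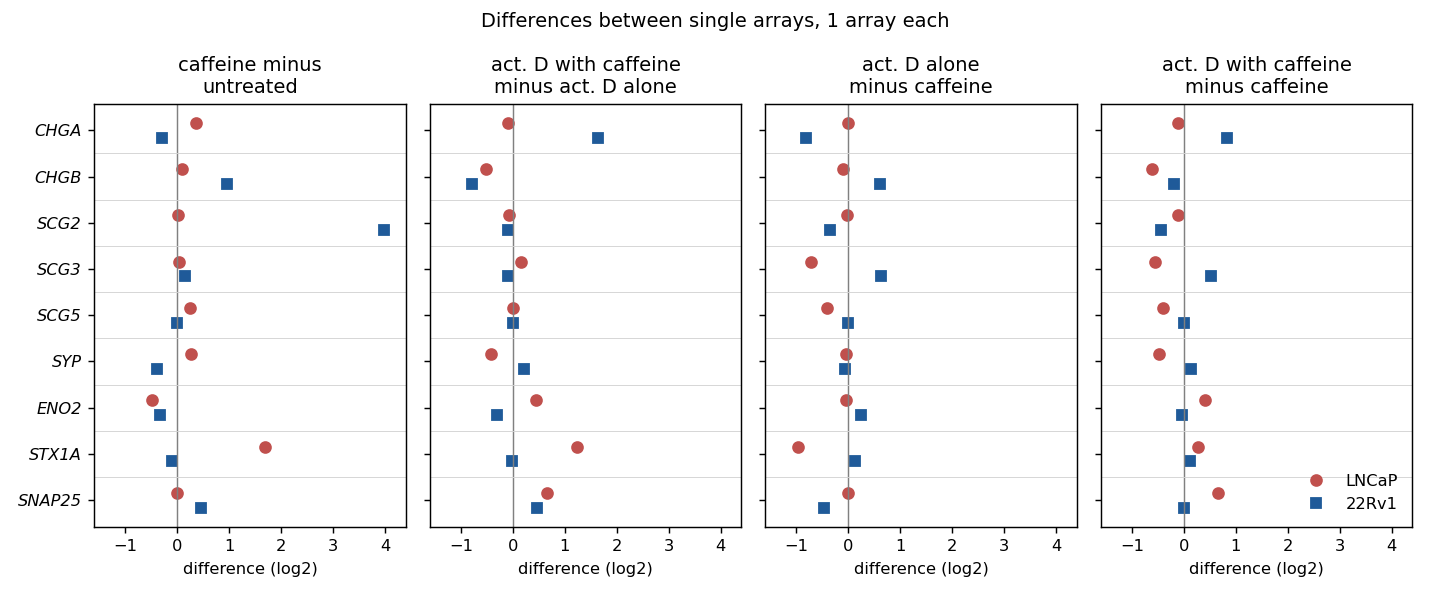
Differences between single arrays (log2, horizontal axis) for the 9 genes in the 4 comparisons within a line, with red circles for LNCaP and blue squares for 22Rv1, and 1 array on each side of a difference. SCG2 in 22Rv1 at 3.98 and STX1A in LNCaP at 1.69 stand out in the first panel, and CHGA in 22Rv1 at 1.63 and STX1A in LNCaP at 1.24 in the second.

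The second step asked which transcripts were lost when the block of decay was released. The degradation, the signal with actinomycin D and caffeine less that with actinomycin D only, was highest for CHGA in 22Rv1, at 5.32 with caffeine and 3.69 without it, a difference of 1.63. One of the 2 arrays was under detection, and against a floor of 4 the difference would be smaller. STX1A in LNCaP was at 6.65 with caffeine and 5.42 without it, a difference of 1.24, and was at 7.81 and 7.83 in 22Rv1. Its higher LNCaP value comes from the array whose 18S rRNA signal was high, so LNCaP gives no degradation value without it, and the part of that array was not tested. SCG2, the member with the largest accumulation, was at 7.71 with caffeine and 7.82 without it in 22Rv1, a difference of -0.10. CHGB was at -0.52 in LNCaP and -0.79 in 22Rv1, although under detection in LNCaP.

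limma called 0 of the 7 genes for degradation, as for all probe sets (0%), with no member probe set and 1712 of all probe sets at an unadjusted p under 0.05. The brighter SNAP25 probe set had an estimate of 0.56 (standard error 0.23, adjusted p = 0.628 from limma), and STX1A one of 0.61 (standard error 0.50, adjusted p = 0.834 from limma).

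After transcription was blocked the median member stayed near its caffeine level on the scale of the array, while single members moved up or down. The decay, actinomycin D alone minus caffeine, had a median of -0.05 over the 3 detected members in LNCaP and 0.03 over the 8 in 22Rv1, against 0.00 and 0.09 for all detected probe sets. In 22Rv1, SCG2 was at -0.35, CHGB at 0.60, SCG3 at 0.63, ENO2 at 0.25 and STX1A at 0.12, and CHGA was at -0.81. In LNCaP, STX1A was at -0.97 and ENO2 at -0.04. limma called 0 of the 7 genes, with 0 member probe sets at an unadjusted p under 0.05, while 2.34% of all probe sets were called. With caffeine kept, as actinomycin D with caffeine minus caffeine, SCG2 was at -0.45 in 22Rv1, and STX1A at 0.27 in LNCaP and 0.11 in 22Rv1. limma called 0 of the 7 genes and 0% of all probe sets in that comparison, with 2628 at an unadjusted p under 0.05. The second SNAP25 probe set was the 1 member probe set among them, at 0.84 (standard error 0.26, adjusted p = 0.312 from limma), and was at 1.11 in LNCaP, which again rests on the array of high 18S rRNA, and 0.57 in 22Rv1.

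These 2 comparisons depend on what the arrays are scaled to. Normalization to a common distribution removes a loss shared by all transcripts. Poly-A control RNAs are spiked in before labelling, and their 24 probe sets averaged 7.32 to 7.97 on the 4 actinomycin D arrays and 6.18 to 7.06 on the 4 others. With the arrays scaled on these controls, the median decay over all tested probe sets was -1.3, against 0.05 as deposited. The members then were close to that median, with SCG2 at -1.54, SCG3 at -1.39, SYP at -1.41 and ENO2 at -1.25. CHGB was at -1.10, STX1A at -1.77 and the brighter SNAP25 probe set at -1.58. CHGB, SCG2, SCG3 and that SNAP25 probe set were under detection on all LNCaP arrays, where the scaling moves background signal too. Their LNCaP part is therefore no measure of transcript loss. Of the 7 genes 5 were called lower, SCG3 and SNAP25 among them, as were 81.5% of all probe sets tested. The direction of the line difference was the same for all 7 genes under this scaling, at -4.47 to -1.55, while the median of all probe sets was 0.46.

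Of the members compared, SCG2 had fewer genes with a like profile over the 8 arrays than most, though more than STX1A and CHGA. Among 3766 genes with a range of at least 2, 85 had a Pearson correlation above 0.95 with SCG2. The closest were CGA at 0.9997, DSCAM-AS1 at 0.991 and TFCP2L1 at 0.990 (n = 8 arrays, which share the 2 lines). CGA, the alpha subunit of the glycoprotein hormones, was at 2.27 on all LNCaP arrays and at 5.39, 13.34, 12.67 and 12.49 in 22Rv1. DSCAM-AS1, a long non-coding RNA, was at 2.78, 3.05, 3.05 and 3.11 in LNCaP and at 3.79, 8.91, 7.88 and 8.03 in 22Rv1. TFCP2L1, a transcription factor, was at 3.16, 3.58, 3.81 and 3.54 in LNCaP and at 5.41, 8.42, 7.60 and 7.65 in 22Rv1. All 3 were thus under 4 in LNCaP, lowest on the untreated array in 22Rv1 and higher on the 3 arrays of cells given caffeine.

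**Figure D4:**
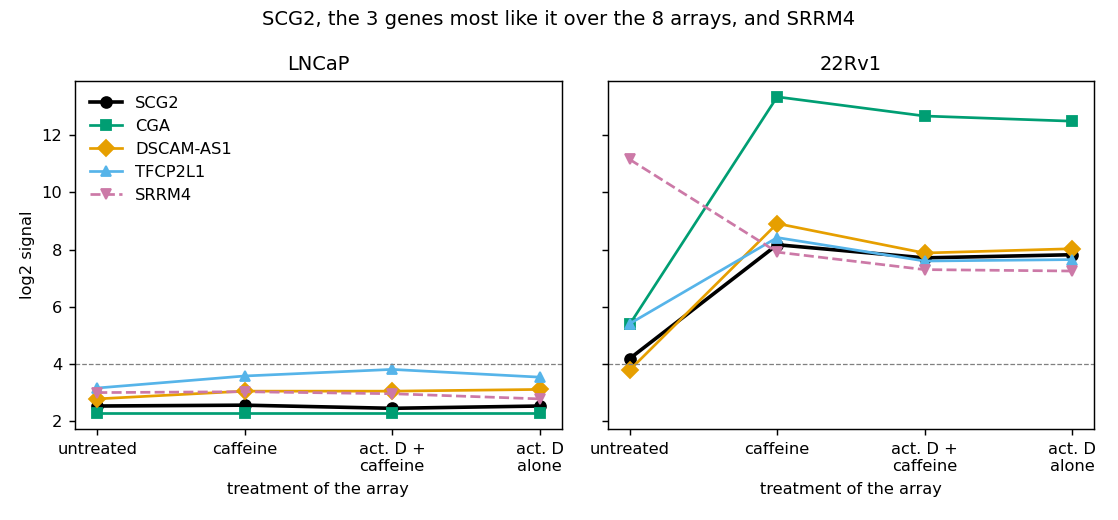
Log2 signals (vertical axis) of SCG2, of the 3 genes with the most similar profile and of SRRM4 on the 4 arrays of LNCaP (left) and 22Rv1 (right), in the order of treatments, with the detection level of 4 dashed. In 22Rv1 SCG2 is at 4.19 untreated and 8.17 with caffeine, and SRRM4 is at 11.15 untreated and 7.91 with caffeine.

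For CHGB, SCG3, SYP, ENO2 and SNAP25 the profile was mostly the step between the lines. STX1A had 27 genes above 0.95, led by CEP85 at 0.993, APAF1 at 0.984 and TNKS at 0.975, which were lowest on the untreated LNCaP array as STX1A was. CHGA had 3, namely CDH6 at 0.960, TUBA3FP at 0.959 and ADCY10P1 at 0.954. CHGB, SCG3, SYP, ENO2 and SNAP25 each had 533 to 623 genes above 0.95, so their nearest genes say little more than that a gene was lower in LNCaP. Among these were VGF, another granin, at 0.997 with CHGB, and SV2A, a synaptic vesicle protein, at 0.996 with SYP. The nearest to ENO2 was RTN2 at 0.999, the nearest to SCG3 was ACADL at 0.999, and the nearest to SNAP25 was RUNDC3B at 0.998.

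The rest of the pathway was described with 5 further lists of genes, whose counts stand against the 26.3% of all probe sets that were lower in LNCaP and the 27.4% that were higher. Of the peptide hormones and precursors, 6 of the 7 tested genes were lower in LNCaP and 1 was higher. All 7 averaged under 4 in one line and passed the limit only through the other, so they had to differ, and they are given by their floored differences with no test. CGA was lower in LNCaP, with a difference of -6.98 at that floor, and NPY, neuropeptide Y, with one of -5.80. NPY was at 2.46 to 3.34 in LNCaP and 9.60 to 10.13 in 22Rv1, with no overlap. GCG, which encodes proglucagon, went the other way, with a floored difference of 6.46. Its LNCaP arrays lay at 10.32 to 10.78 and its 22Rv1 arrays at 2.29 to 2.57. GRP, SST, VIP, GAST, POMC, TAC1, PENK and NTS were under 4 on all arrays. In the accumulation 2 of 7 detected genes were past 1.3 in 22Rv1, led by CGA at 7.95, against 5.73% of all detected probe sets. In LNCaP only 3 genes were detected and 0 were past 1.3, against 3.55% of all detected probe sets.

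Of the genes of prohormone processing, 3 of the 4 tested were lower in LNCaP, against 26.3% of all probe sets. PCSK1N, which encodes an inhibitor of the convertase PC1, was at -3.28 (standard error 0.21, adjusted p = 0.00012 from limma), FURIN, a ubiquitous convertase, at -2.13 (standard error 0.19, adjusted p = 0.000396 from limma), and CPE, which trims the cleaved peptides, at -0.99 (standard error 0.22, adjusted p = 0.0126 from limma). CPE was bright in both lines, at 9.19 to 10.26 in LNCaP and 10.06 to 10.99 in 22Rv1. PCSK1 and PCSK2 were not analysed here.

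Of 19 vesicle and exocytosis genes tested, 9 were lower in LNCaP, 5 were higher and 5 were not called, against 26.3% lower and 27.4% higher of all probe sets. Of the 19, 3 averaged under 4 in LNCaP and had to differ, among them UNC13A, which primes vesicles, with a floored difference of -4.53, and SV2A with one of -3.77. SYT4, a synaptotagmin, was at -3.63 (standard error 0.55, adjusted p = 0.00266 from limma). SYT4 was detected in LNCaP too, at 6.32 to 9.33, with both actinomycin D arrays below both others. SYT1, SYN1, PTPRN, CADPS, SLC18A1 and SLC18A2, all of neurons or endocrine cells, were under 4 on all arrays of both lines.

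**Figure D5:**
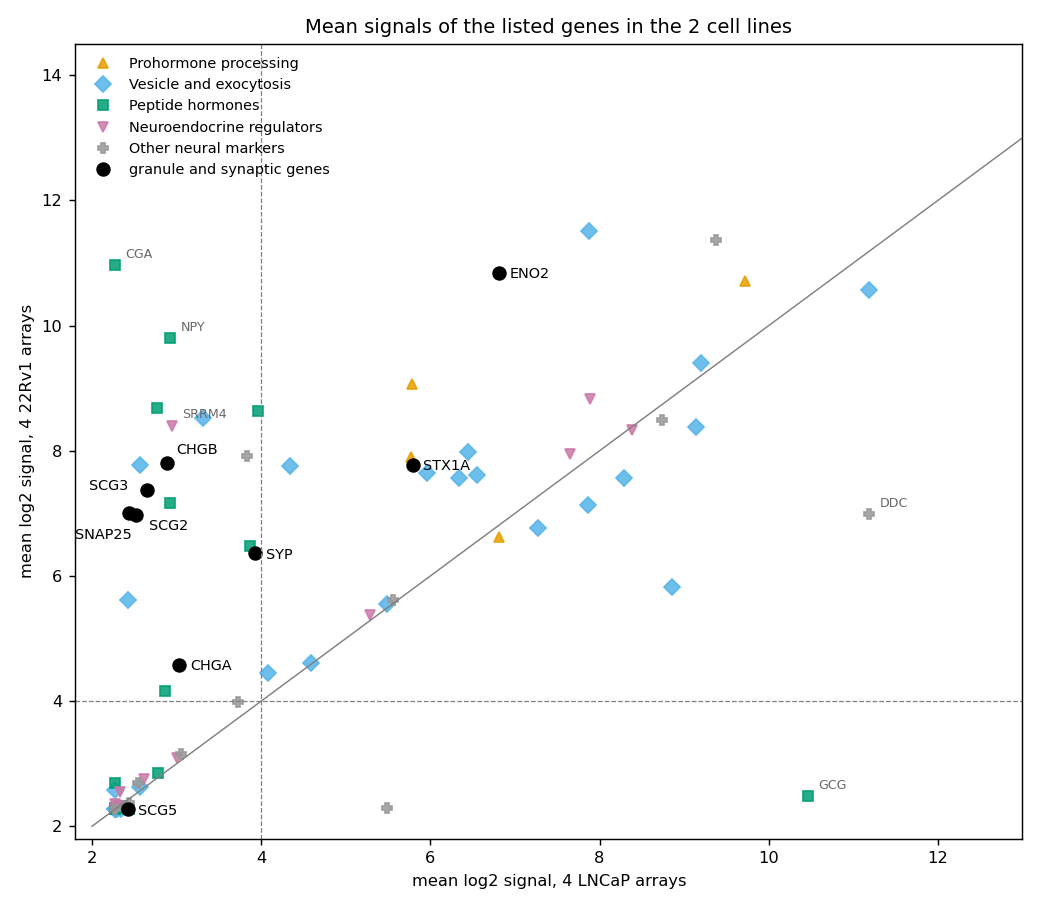
Mean log2 signal over the 4 LNCaP arrays (horizontal axis) and over the 4 22Rv1 arrays (vertical axis) of the granule and synaptic genes (black) and of the genes of the 5 further lists, with equal signals on the diagonal and the detection level of 4 dashed. CHGB, SCG2, SCG3 and SNAP25 lie with CGA and NPY in the corner that is under 4 in LNCaP only, and GCG lies in the opposite corner.

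Of the regulators of the neuroendocrine state, 1 of 5 tested genes differed, and over all probe sets 26.3% were lower and 27.4% higher in LNCaP. SRRM4, a neural splicing factor that acts on the transcript of the repressor REST, was under detection in LNCaP, passed the limit only through 22Rv1 and had a floored difference of -4.40. It was at 2.78 to 3.03 in LNCaP and, in the order of the steps, at 11.15, 7.91, 7.30 and 7.25 in 22Rv1, so its accumulation was -3.24 where that of SCG2 was 3.98. REST, which represses neuronal genes, was at 7.97, 8.33, 7.16 and 8.09 in LNCaP and at 8.01, 9.46, 9.38 and 8.46 in 22Rv1, with an accumulation of 0.35 in LNCaP and 1.45 in 22Rv1. Its line difference was not called at -0.94 (standard error 0.37, adjusted p = 0.0753 from limma). INSM1, FOXA2, SOX2, POU3F2, NKX2-1 and MYCN were under 4 on all arrays.

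Of the other neural markers, 2 of 5 tested genes were lower in LNCaP, 1 was higher and 2 were not called, against 26.3% lower and 27.4% higher of all probe sets. DPYSL3, which averaged under 4 in LNCaP, had a floored difference of -3.70. TUBB3, a neuronal tubulin, was at -1.99 (standard error 0.19, adjusted p = 0.000553 from limma). DDC, the decarboxylase of dopamine and serotonin synthesis, was higher in LNCaP at 4.20 (standard error 0.20, adjusted p = 4.35e-05 from limma), with 10.30 to 12.09 in LNCaP and 6.51 to 7.47 in 22Rv1. NEFL, a neurofilament, had too low a mean to be tested and was at 5.07 to 5.72 in LNCaP and 2.27 to 2.36 in 22Rv1. NCAM1 and UCHL1 were under 4 in both lines.

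The promoters of 6 of the 9 genes, from 250 bases before the annotated start to 50 from it, were found in the RefSeq table of GRCh38.p14, those of CHGA, SCG3, SCG5, SYP, ENO2 and STX1A. They were searched on both strands for the cAMP response element TGACGTCA, its shorter core TGACG, which the full element contains, and the RE1 element's parts TTCAGCACC and GGACAG. The full element was found in the CHGA promoter, 54 bases before the start, and in 1.85% of 35116 promoters. The core was found in CHGA, SCG3 and SCG5 and in 24.6% of promoters. TTCAGCACC was found in SCG3 and in 0.376% of promoters, and GGACAG in SCG3 and in 20.5%. The matches are letters in a window and not sites shown to be bound. The CHGA sequence is shown because it holds the full element, capitals marking it, and the SCG3 sequence because it holds both RE1 parts, in capitals, just after the start. CHGA had an accumulation of -0.30 in 22Rv1 and SCG3 one of 0.14.
CHGA, chr14:92922900-92923149, + strand, the 250 bases before the start: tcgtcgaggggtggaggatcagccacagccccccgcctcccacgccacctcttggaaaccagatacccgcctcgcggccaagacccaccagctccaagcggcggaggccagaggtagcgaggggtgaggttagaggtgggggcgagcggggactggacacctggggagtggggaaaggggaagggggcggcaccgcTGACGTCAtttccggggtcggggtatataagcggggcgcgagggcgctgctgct
SCG3, chr15:51681504-51681533, + strand, 30 bases from just after the start: caggaacTTCAGCACCcacagggcGGACAG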

How the data were processed

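The deposited values are log2 signals of 8 arrays, which the authors made with gcRMA (convolution background correction, quantile normalization, a summary per probe set). RMA and GCRMA appear in the submitters' processing notes without a version. The deposited values were used unchanged. They carry no depth, and their precision is limited by 1 array per group. Quantile normalization hides a change shared by all transcripts.

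The array annotation gave 41097 probe sets 1 symbol, 1801 several and 11777 none. limma 3.58.1 in R 4.3.3 tested the line difference, with treatment as a term, and each treatment comparison, with line as a term, over the 21453 probe sets whose mean was 4 or more (3 residual degrees of freedom, prior 2.93), with Benjamini-Hochberg adjustment. Differences of 2 arrays used cut-offs of 2 (untreated) and 1.3 (accumulation) among probe sets of at least 4 in one of them. In simulated data 150 of 200 line differences of 2 log2 units were recovered, and 83 of 200 accumulations of that size. At 1 log2 unit 0 of 200 were recovered in either comparison, so accumulations of that size would be missed. For the line difference this sets no such limit. Only 200 probe sets differed in the simulation, while 11503 were called in the data, CPE at -0.99 among them.

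The members and lists were chosen with earlier results of these data known. Named were all members, in each list the 3 genes farthest from 0 in the line difference and the highest accumulation in each line, and the 3 genes most correlated with a member, with further genes of the lists named after their values were seen. Tables were made with python 3.11.15 and pandas 2.3.3. Alternatives were other filters, variance models, floors, cut-offs and scalings, each array left out, and other probe sets.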

Additional observations from a re-analysis of the deposited data

Results flagged for a closer look

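STX1A, detected on all arrays, had differences of opposite sign in the 2 lines, although its 22Rv1 arrays stayed within 0.12. Its accumulation was 1.69 in LNCaP and -0.10 in 22Rv1, its degradation 1.24 in LNCaP and -0.01 in 22Rv1, and its decay -0.97 in LNCaP and 0.12 in 22Rv1. The contrast between the lines was not tested.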

How the results depend on the processing

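The direction of the line difference of the 7 tested member genes was the same in all alternatives run. All 7 were called in each, except that 2 were tested and called with a mean of at least 6, that 6 were with probe sets averaged (SNAP25 then had too low a mean), and that SCG2 (-4.45) and STX1A (-2.0) were not called without a filter. Over all probe sets, 11503 differed between the lines, 7401 without a filter, 5391 genes with probe sets averaged, and 9037 to 10238 when 1 array was left out.
Accumulation was called for 10 probe sets, for 1 without a filter, 207 with a mean of at least 6, 136 under a variance trend, 6 under robust variances, 0 with no line term, 178 with poly-A scaling, 69 genes by probe set means and 0 in every fit without 1 array. Degradation was called for 0, and for 1, 5, 7, 38 and 3 without a filter, with a mean of at least 6, under a variance trend, with poly-A scaling and gene means. Decay was called for 501, and for 6 without a filter, 0 with no line term, 17549 with poly-A scaling (5 member genes) and 0 to 181 without 1 array. With caffeine kept, 0 were called, 1 without a filter and 11209 with poly-A scaling (2 member genes, against 0). No member was called for accumulation or degradation in any alternative. Leaving out 1 array moved the estimate for accumulation of SCG2 over 0.13 to 3.87 and of STX1A over 0.06 to 1.53, both lowest without an untreated array, that of 22Rv1 for SCG2 and that of LNCaP for STX1A.
Of all probe sets, 1721 were lower in untreated LNCaP by more than 2, 4371 with a cut-off of 1, 1012 with poly-A scaling and 560 genes by means, and of the members 7, with 6 to 8 in the alternatives. Accumulation past 1.3 was found for 773 probe sets in LNCaP, 1385 with a cut-off of 1, 506 with detection at 6, 1180 with poly-A scaling and 150 genes by means. In 22Rv1 it was found for 1257, and for 2025, 1887 and 277 with a cut-off of 1, poly-A scaling and gene means. SCG2 in 22Rv1 and STX1A in LNCaP passed in each alternative run. The floor of 4 for the line difference was chosen after seeing the data. Every group holds replicate 1 alone, so repeats could not be paired, and the treatment term already pairs the arrays of the lines by treatment. These differences of 2 arrays have no leave-out values, and without replicates the cause of any shift was not tested. Signals under 4 limit the size of the line differences of CHGB, SCG2, SCG3 and SNAP25.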
